A study of Mus musculus with 10 samples.

Results

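The Hes and Hey genes encode basic helix-loop-helix repressors, most of which are switched on by Notch receptors. All 9 genes of the family asked for, the 6 Hes genes Hes1, Hes2, Hes3, Hes5, Hes6 and Hes7 and the 3 Hey genes Hey1, Hey2 and Heyl, had a probe set whose annotation gave their symbol alone. They are 9 of 22180 genes named in this way on the array. They were followed in the respiratory epithelium of the nose, captured by laser from fixed sections of mouse embryos at E16.5. The wild-type (WT) group held 5 embryos, 4 labelled female and 1 male (WT 3). The triple knockout (TKO) group held 5 embryos that lacked miR-34a (miR-34a-/-) together with the miR-34b/c-/- pair and the miR-449a/b/c-/- cluster. TKO 1 and TKO 3 were labelled female, the other 3 male. The labels do not give the strain, the litter or how the alleles were made, and the p-values measure the spread between these embryos. Each embryo gave 1 Affymetrix array. Values are on the log2 scale of RMA, on which a difference of 1 is a doubling.

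In Notch signalling a ligand on one cell leads to cleavage of the receptor on its neighbour, and the freed receptor fragment joins the DNA-binding protein RBPJ to switch on target genes. Hes1, Hes5, Hes7 and the Hey genes are among the best known of these targets. The Hes proteins among them repress other genes through Groucho corepressors of the TLE family. Hes6 is known as a relative that antagonises Hes1 and favours differentiation. In airway epithelium Notch signalling is known to favour secretory cells and to hold back multiciliated cells, and miR-34 and miR-449 are microRNAs abundant in multiciliated cells. The comparison of TKO with WT asks which genes of this epithelium differ once those microRNAs are missing.

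The mature 5p microRNAs of the deleted genes are shown because they share 1 seed, bases 2 to 8, through which they recognise messenger RNAs. RefSeq sequences (GRCm38.p6) were found for 4 of the 6 genes, and all 4 carried the same seed, in capitals. Mir34c and Mir449b had no 5p entry.
mmu-miR-34a-5p: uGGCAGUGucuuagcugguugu
mmu-miR-34b-5p: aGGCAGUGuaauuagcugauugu
mmu-miR-449a-5p: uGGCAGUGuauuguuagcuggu
mmu-miR-449c-5p: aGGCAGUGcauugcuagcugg

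RefSeq promoters, 250 bases before to 50 after a start, were found for 4 of the 9 genes, with 2 starts for Hes6. The entries missing were those of Hes1, Hes2, Hes3, Hey1 and Heyl. The RBPJ core TGGGAA was searched on both strands, and it lay in the promoters of Hes5, Hey2 and Hes7 and in neither promoter of Hes6. Of 32851 promoters of this length, 25.56% held the core and 3.79% held it at 2 or more places, as those of Hes5 and Hey2 did. The longer form GTGGGAA, which contains the core, was present in the same 3 promoters and in 6.38% of all promoters. The 4 matches that lay wholly before the start are shown with 12 bases on either side, the core in capitals. Where the capitals read TTCCCA, the core lies on the opposite strand. The matches are shown because RBPJ is known to bind this core, not because these stretches were shown to be bound.
Hes5, chr4:154960685-154960714, plus strand: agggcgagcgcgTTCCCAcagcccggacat
Hes5, chr4:154960829-154960858, plus strand: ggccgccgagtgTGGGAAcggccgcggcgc
Hes7, chr11:69120261-69120290, plus strand: tcctcccctcacTTCCCAcatttggggcta
Hey2, chr10:30842973-30843002, minus strand: tgcgcggtggcaTTCCCAcgcctctgccaa
The N box CACNAG, a site known to be bound by Hes proteins, was found in 1 of the Hes6 promoters and in that of Hes7, and in 42.48% of all promoters. A match is only a run of letters, and none of these arrays measured binding.

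Correlations between arrays were 0.975 to 0.989, and Xist and Uty separated the labelled sexes on all 10. The deleted genes were read from a fit of all 22180 genes, dim ones included. There Mir449c fell by 3.41 and Mir449a fell by 1.81 with sex in the model (limma adjusted p = 2.6e-05 and 0.000442), while Mir34a and Mir34c changed by -0.15 and -0.19 and did not pass (adjusted p = 0.633 and 0.318). Already in WT these last lay at 3.34 to 3.68 and 3.20 to 3.39, below the level of 4.58 under which genes were treated as dim, so that their probe sets do not check the labels. Mir34b lay at 5.61 to 5.98 in WT and 5.40 to 5.57 in TKO, a change of -0.28 (limma adjusted p = 0.166). Mir449b lay at 12.13 to 12.23 in WT and 11.67 to 12.08 in TKO, a change of -0.33 (limma adjusted p = 0.0318). Both thus kept signal above the dim level in TKO, for a reason that was not tested. Of the markers of the labelled tissue, the epithelial gene Epcam lay at 8.29 to 8.78 and Foxj1, the master regulator of motile cilia, at 10.7 to 11.1. Krt5, which marks basal cells, had no probe set with a single symbol. Other tissues were present too: Col1a1 of mesenchyme ranged from 8.80 to 12.04 over the arrays and Omp of olfactory neurons from 5.90 to 7.42. The leukocyte gene Ptprc lay at 3.45 to 3.77, below the dim level, but 7 of 9 leukocyte markers on the array had means above it. Pecam1 of endothelium lay at 5.34 to 6.02, Acta2 of smooth muscle at 6.82 to 7.65, Myog of skeletal muscle at 5.69 to 6.36 and Sox10 of glia at 5.17 to 5.54. The RNA came from many cells, so fewer cells of a type and less RNA per cell cannot be told apart.

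Of the 9 Hes and Hey genes 1 rose in TKO, Hes2, and none fell. All 9 had a mean above the dim level and were tested among 16635 genes. The call rule was a limma adjusted p below 0.05, which 4.39% of all genes tested passed as higher, 1.12% as lower and 5.51% in either direction. Those shares lean on single arrays: limma called 916 genes with all arrays, 210 without WT 3, 307 without TKO 3 and 552 without TKO 1. At an unadjusted p below 0.05, 3 members were higher and 0 were lower, against 20.9% of all genes in either direction, and by the exact permutation test 3 members had p below 0.05, against 19.8% of all genes. The changes ran from -0.18 for Hey2 to 0.57 for Hes2, with 4 above and 5 below 0. Their median was -0.074, and that of all genes tested was -0.00052. The standard errors of the members lay between 0.080 and 0.16, beside a median of 0.10 over all genes.

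**Figure D1:**
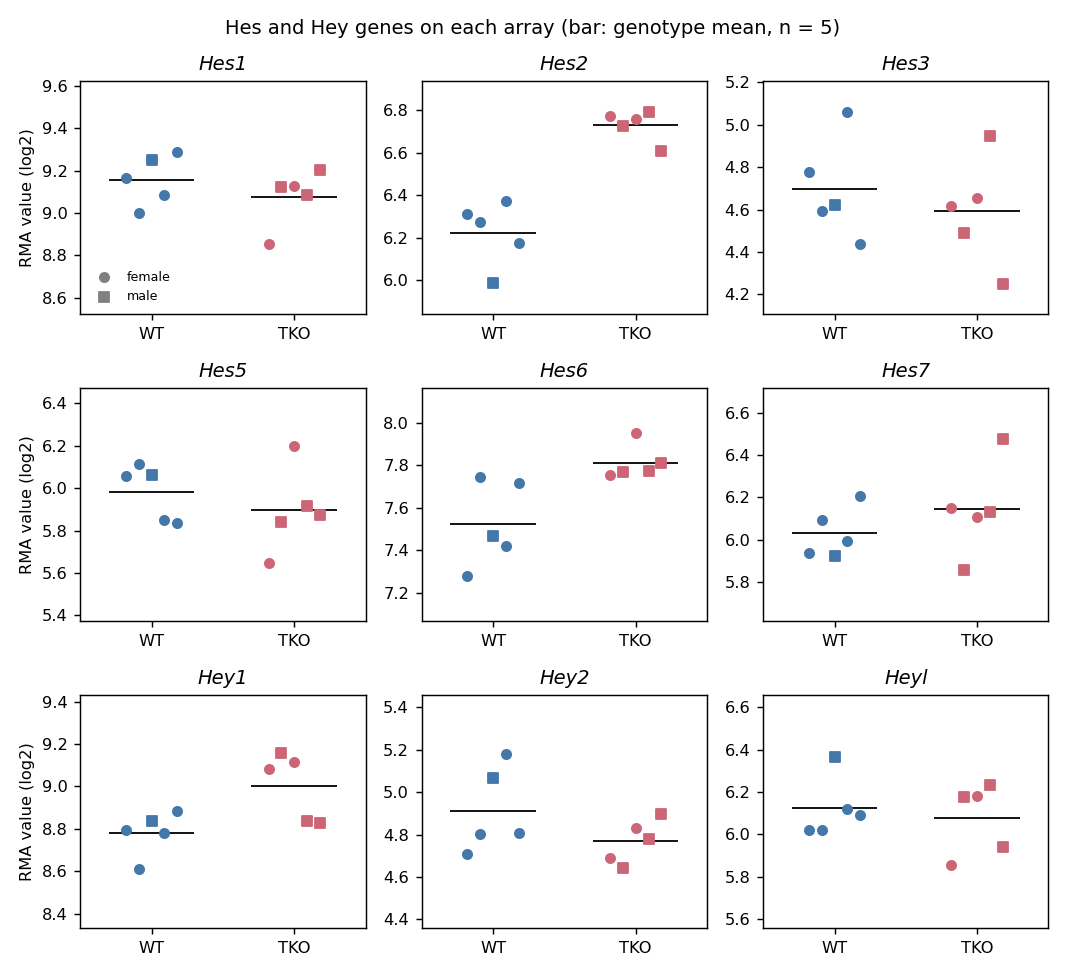
RMA values (log2) of the 9 Hes and Hey genes on each array, 5 WT and 5 TKO embryos, circles for embryos labelled female and squares for male, with a bar at each genotype mean and the same span on every vertical axis. The TKO values of Hes2 (6.61 to 6.79) and of Hes6 (7.76 to 7.95) all lie above the WT values (5.99 to 6.37 and 7.28 to 7.75), and those of the other 7 genes overlap.

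Hes2, a little-studied member of the family, was 6.31, 6.27, 5.99, 6.37 and 6.18 in WT 1 to WT 5. It was 6.77, 6.73, 6.76, 6.79 and 6.61 in TKO 1 to TKO 5. Every TKO embryo therefore lay above every WT embryo, and the lowest value was that of WT 3, the only WT male. The means were 6.22 ± 0.15 and 6.73 ± 0.073 (SD, n = 5 each), and the exact two-sided permutation p was 0.00794, the smallest that 5 arrays against 5 can give. With sex in the model the increase was 0.57 ± 0.084 (SE; 95% interval 0.38 to 0.75), or 1.48-fold, with a limma adjusted p of 0.0035. Among all genes tested, 5.54% were higher in TKO with no overlap between the genotypes. Among females only, with 4 WT and 2 TKO arrays, the increase was 0.48 and missed the threshold (limma adjusted p = 0.101), while leaving out any 1 array kept it below the threshold (adjusted p = 0.00479 to 0.0498).

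Hes6, the antagonist of Hes1, was the other member whose genotypes did not overlap. It was 7.28, 7.75, 7.47, 7.42 and 7.72 in WT 1 to WT 5, and 7.76, 7.77, 7.95, 7.77 and 7.81 in TKO 1 to TKO 5. WT 2 and WT 5 came within 0.1 of the lowest TKO value, and TKO 3 stood highest. The means were 7.53 ± 0.20 and 7.81 ± 0.081 (SD, n = 5 each; exact permutation p = 0.00794). The modelled difference of 0.32 ± 0.10 (SE; 95% interval 0.091 to 0.54) did not pass over all genes (limma adjusted p = 0.10). In all, 2 of 9 members had no overlap, as had 7.60% of all genes tested. When the score of 7 lists of non-epithelial markers entered the model, the Hes6 difference was 0.12 (limma adjusted p = 0.685), and when the mean of the secretory markers entered it was 0.54 (adjusted p = 0.0174).

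Hey1, a Notch target with known roles in vessels and epithelia, was 8.79, 8.61, 8.83, 8.78 and 8.88 in WT 1 to WT 5. In TKO 1 to TKO 5 it was 9.08, 9.16, 9.12, 8.84 and 8.83. TKO 1, TKO 2 and TKO 3 lay above all WT arrays, while TKO 4 and TKO 5 lay among them. The means were 8.78 ± 0.10 and 9.004 ± 0.16 (SD, n = 5 each; exact permutation p = 0.0476), and the difference of 0.25 ± 0.091 (SE; 95% interval 0.053 to 0.45) did not pass (limma adjusted p = 0.137).

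Hes1, a widely expressed Notch effector, lay at 8.999 to 9.29 in WT and 8.85 to 9.20 in TKO. Only TKO 1, at 8.85, was below all WT arrays. The difference was -0.13 ± 0.080 (SE; 95% interval -0.31 to 0.042; limma adjusted p = 0.380). Without TKO 1 it was -0.059, with an interval from -0.25 to 0.13. Without TKO 3 it was -0.20, with an interval from -0.39 to -0.0034 (limma adjusted p = 0.311). No other member had a smaller standard error.

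On their brightest probe sets, Hes5, Hes7 and Hey2, whose promoters held the matches shown above, gave differences within their spread. Hes5, known from neural progenitors, had a WT mean of 5.98 ± 0.13 and a TKO mean of 5.90 ± 0.20 (SD, n = 5 each; limma adjusted p = 0.721). Hes7, the oscillating repressor of somite formation, was 6.03 ± 0.12 and 6.14 ± 0.22 (limma adjusted p = 0.604). Hey2, known from the heart and arteries, was 4.91 ± 0.20 and 4.77 ± 0.10 (limma adjusted p = 0.422). WT 3 and WT 4, at 5.07 and 5.18, stood above the other arrays for Hey2, and its mean lay close to the dim level.

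Heyl, known from vascular smooth muscle, had a WT mean of 6.12 ± 0.14 and a TKO mean of 6.08 ± 0.17 (SD, n = 5 each; limma adjusted p = 0.552). WT 3 gave its highest value, 6.36, and TKO 1 its lowest, 5.85. Hes3, known from neural progenitors, was the dimmest member relative to that level. It was 4.70 ± 0.24 and 4.59 ± 0.25 (limma adjusted p = 0.841), and 3 of 10 arrays lay under 4.58. Over the 8 members that did not pass, the 95% intervals of these brightest probe sets ran from -0.43 to 0.54 with all 10 arrays, which leaves room for falls of up to 1.35-fold and rises of up to 1.46-fold. A dimmer Hes5 probe set, described next, had an interval that reached lower.

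**Figure D2:**
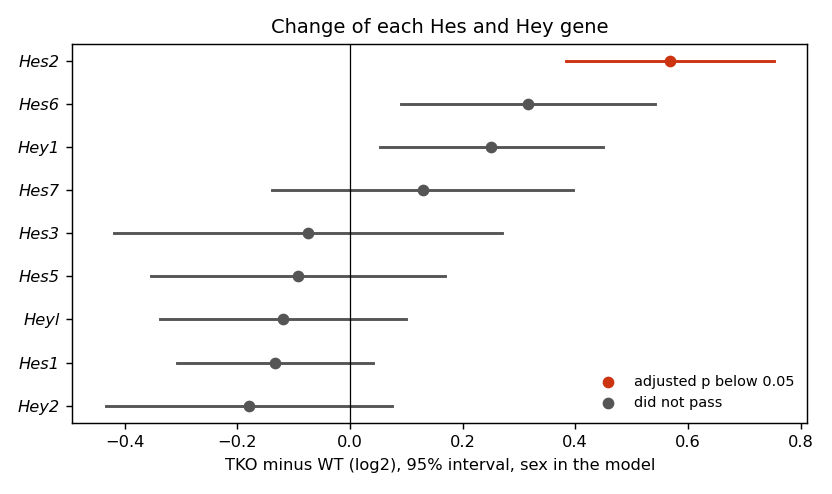
Change of each Hes and Hey gene, TKO minus WT on the log2 scale with sex in the model (5 WT and 5 TKO arrays), as points with 95% intervals, red where the limma adjusted p is below 0.05. Hes2 at 0.57 passes, the intervals of Hes6 and Hey1 lie above 0 without passing over all genes, and those of the other 6 cross 0.

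Hes5 and Hes7 had 2 probe sets each. Their dimmer ones gave larger differences, in the same direction, than the brighter ones used above. The dimmer Hes5 probe set lay at 5.42 to 5.85 in WT and 4.92 to 5.49 in TKO, with a difference of -0.37 ± 0.14 (SE; 95% interval -0.68 to -0.067; exact permutation p = 0.0159). The dimmer Hes7 probe set lay at 5.29 to 5.66 in WT and 5.67 to 6.02 in TKO. Its genotypes thus narrowly failed to overlap, as did those of 7.60% of all genes tested. The difference was 0.26 ± 0.12 (SE; exact permutation p = 0.00794), with a 95% interval from -0.0071 to 0.54 that includes 0. Neither passed when all 41345 probe sets were adjusted together (limma adjusted p = 0.255 and 0.381). The annotation used here does not say what part of each gene these probe sets cover.

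Hes2, Hes3 and Hes5 lie within 5 Mb of Mir34a, 1 of the 3 deleted loci, on chromosome 4, with 23, 26 and 49 tested genes between them and it. Heyl is on the same chromosome outside that window, and the other 5 members are on chromosomes that hold no deleted locus. Within the window 4 of 101 tested genes other than Mir34a rose (3.96%) and 1 fell (0.990%), 4.95% together, beside 6.27% of the other tested genes of the chromosome and 5.51% of all genes. Hes2 had the second largest increase there. The nearest tested gene on the Mir34a side, Espn, an actin-bundling protein of microvilli and stereocilia, rose by 0.37 (limma adjusted p = 0.0199), and Icmt, a methyltransferase gene that follows Hes3 in the order of tested genes, rose by 0.53 (limma adjusted p = 0.00128). Of the 3 tested genes on either side of Hes2, Espn alone passed, and Hes3 among them was at -0.074. The other changed genes were Agtrap at 0.89 and Uts2 at -0.31. These neighbours were chosen after their values were seen. A position beside the deleted locus and the loss of the microRNAs cannot be told apart in this design.

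**Figure D3:**
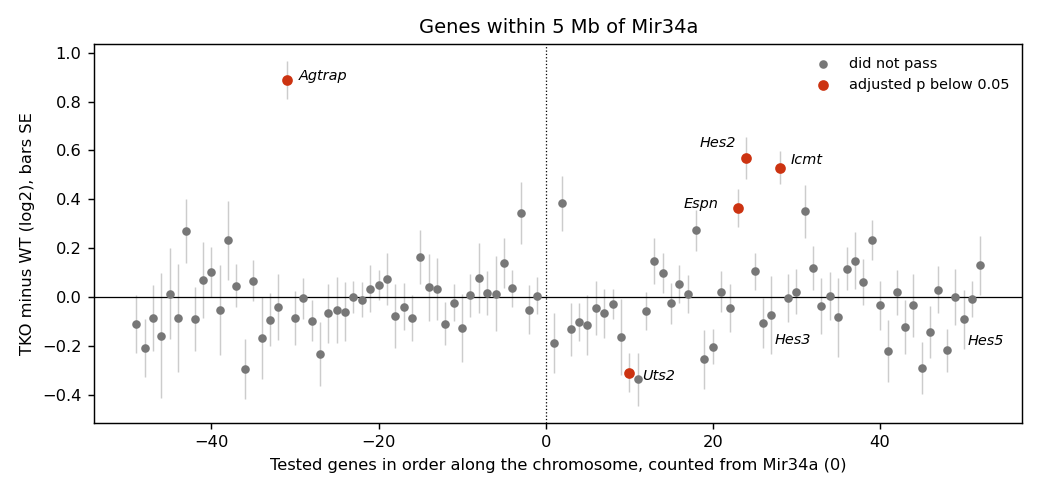
Change (TKO minus WT, log2, bars show the SE, 5 arrays per genotype) of the 101 tested genes within 5 Mb of Mir34a, in their order along the chromosome counted from Mir34a. Red points are the 5 genes past a limma adjusted p of 0.05, of which Espn, Hes2 and Icmt lie close together, while Hes3 and Hes5 lie near 0.

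Markers of the cell types that the capture could hold were set beside these values as the mean of each list. Of 12 lists, that of secretory cells differed most by the exact permutation test: it lay at 7.22 to 7.78 in WT and 7.58 to 7.95 in TKO, a difference of 0.34 (exact permutation p = 0.0238, adjusted over the 12 lists 0.286). With that mean as a covariate Hes2 was higher by 0.55 (limma adjusted p = 0.0319). When the non-epithelial score entered in its place, Hes2 was higher by 0.62 (limma adjusted p = 0.0378). The mean of 12 markers of multiciliated cells lay at 9.60 to 9.92 in WT and 9.69 to 9.99 in TKO (exact permutation p = 0.595). Taken singly, 2 of these 12 markers rose and 0 fell. The mean of 12 epithelial genes lay at 9.36 to 9.54 and 9.35 to 9.49 (exact permutation p = 0.944). For the Hey genes, known from vessels, the endothelial list lay at 5.13 to 5.55 in WT and 4.96 to 5.42 in TKO (exact permutation p = 0.405), and the vascular mural list at 5.95 to 6.25 and 5.91 to 6.14 (exact permutation p = 0.151). The olfactory neuron list, which holds the proneural factors Neurog1 and Neurod1, ranged from 5.60 to 7.79 in WT and from 5.48 to 6.98 in TKO (exact permutation p = 0.460). The skeletal muscle list had the widest difference of the 12, -0.59 (5.32 to 6.87 in WT and 5.18 to 6.18 in TKO; exact permutation p = 0.119), and 2 of its 10 genes fell. The basal cell list lay at 7.93 to 8.11 in WT and 7.79 to 8.08 in TKO (exact permutation p = 0.103), and 1 of its 9 tested genes fell. For the other 4 lists, of glia, mesenchyme, cartilage and bone, and leukocytes, the exact permutation p ran from 0.262 to 0.952. In the endothelial, vascular mural and mesenchyme lists 1 tested gene each fell, of 12, 12 and 11. None passed in the remaining lists, that of secretory cells included (10 tested). Among all genes tested 4.39% rose and 1.12% fell. The part of these lists in the members' values was not tested. The fits with a covariate cannot tell it apart from genotype.

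Of 81 other Notch pathway genes listed by role, 74 were tested, and 1 rose, Jag1, while 73 did not pass and 0 fell. As given above, 4.39% of all genes tested rose and 1.12% fell. At an unadjusted p below 0.05, 8 of the 74 were higher and 5 lower, beside 13.2% and 7.72% of all genes. An exact permutation p below 0.05 was found for 14 of the 74, beside 19.8% of all genes. The counts per list that follow are read against the 20.9% of all genes with an unadjusted p below 0.05. Jag1, a ligand, lay at 7.64 to 8.03 in WT and 8.23 to 8.65 in TKO and rose by 0.74 ± 0.11 (SE; limma adjusted p = 0.00372). Its call was lost among females only (0.72, limma adjusted p = 0.0772) and when the non-epithelial score entered the model (0.53, limma adjusted p = 0.0745). Over all genes limma called 56 and 113 in these settings, against 916 with all arrays and no score. The median change over the 74 genes was 0.015.

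Among the 4 receptors, none passed (1 at an unadjusted p below 0.05), and the smallest p were those of Notch2 at 0.23 and Notch1 at 0.14. Of 9 genes of ligand endocytosis and receptor glycosylation, none passed (3 at an unadjusted p below 0.05): Mib2, a ubiquitin ligase that acts on ligands, was at -0.29 and Neurl1a, a neuralized-type ligase, at 0.26. None of 9 genes of receptor cleavage passed (1 at an unadjusted p below 0.05), with Aph1b, a gamma-secretase subunit, at -0.42 (limma adjusted p = 0.0623) and the protease gene Furin at -0.12.

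Closest to the members are the genes of the nuclear complex that switches on Notch targets and the corepressors listed for Hes, Hey and RBPJ. Not every member is a known target of that complex or is known to recruit each corepressor. Of 7 genes of the nuclear complex 0 passed, also at an unadjusted p below 0.05. Maml2, a coactivator of the Notch fragment, was at -0.15 and Snw1 at 0.097. Of 13 corepressors none passed (1 at an unadjusted p below 0.05). Tle4, a Groucho protein, was at 0.26 (limma adjusted p = 0.10) with no overlap between genotypes, and the histone deacetylase gene Hdac1 at -0.26. Over all the lists, 4 of the 74 genes had no overlap, beside 7.60% of all genes tested. The corepressor list had the highest median of the 8 lists, 0.078.

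Inhibitors and related helix-loop-helix factors did not pass either. Of 11 inhibitors 2 had an unadjusted p below 0.05, Numbl at -0.29 (limma adjusted p = 0.0837) and the ubiquitin ligase gene Itch at 0.23. Of 14 related or opposing factors 3 did. The smallest p were those of Id1, a partner that keeps such factors from binding DNA, at 0.33 (limma adjusted p = 0.0935), and Atoh1, a proneural factor, at -0.22.

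**Figure D4:**
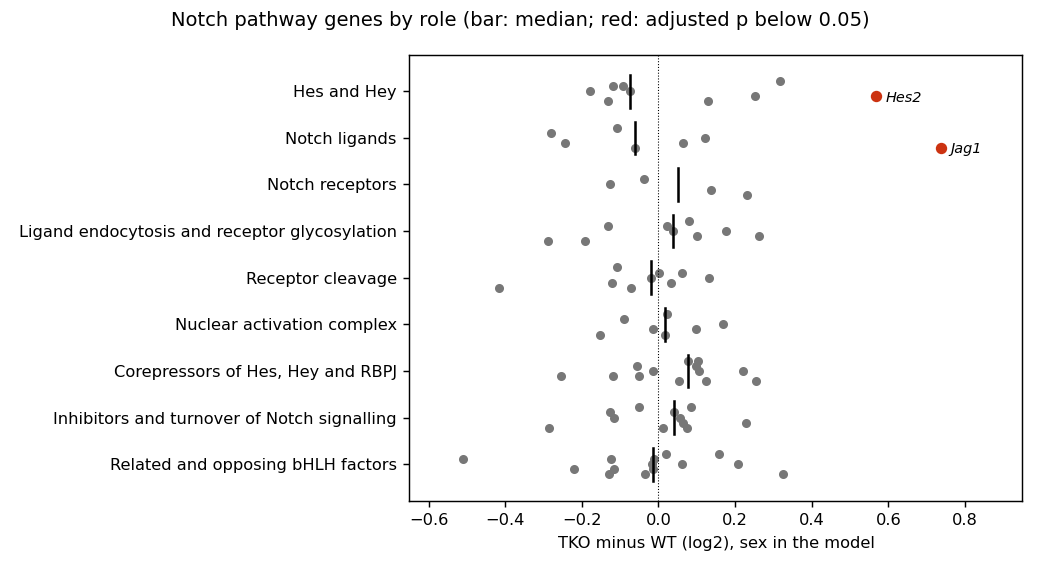
Change (TKO minus WT, log2, sex in the model, 5 arrays per genotype) of the 9 Hes and Hey genes and of 74 other tested Notch pathway genes, 1 point per gene, grouped by role with a bar at each median. Hes2 at 0.57 and Jag1 at 0.74 are the genes past a limma adjusted p of 0.05.

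The genes whose values followed each member most closely over the 10 arrays were named as a description. For Hes2 they were Ppp1r3e, Msrb2 and Asrgl1 (Pearson r 0.963, 0.959 and 0.959 over 10 arrays). Each of them rose in TKO, which a choice by r over both genotypes favours. With the genotype means taken out of both genes these r were 0.804, 0.685 and 0.678. Within TKO alone they were 0.346, 0.827 and 0.812, and within WT alone 0.965, 0.649 and 0.674. For Hes6 they were Irs2, an adaptor of the insulin receptor, Sass6, a centriole assembly protein, and Lyar (r 0.962, 0.945 and 0.943), of which Sass6 rose by 0.43 (limma adjusted p = 0.0232). For Hey1 they were Mdm4, a p53 inhibitor, Pomt2 and Man1a2 (r 0.974, 0.939 and 0.937), and none of them passed. Those of Hes1 were Slc1a5, Pnpla7 and Slc9a5 (r 0.872 to 0.899), and those of Hes5 were Jmy, Efl1 and Spcs1 (0.827 to 0.903). Hes7 was followed by Nob1, Gpr34 and Syngr4 (0.859 to 0.871) and Hes3 by Igll1, Dbh and Mettl27 (0.871 to 0.906). Within WT alone the r of Gpr34 and Syngr4 with Hes7 were 0.379 and 0.346, and within TKO alone 0.961 and 0.970. Hey2 was followed by Dnmt3l, Fbxo2 and Erich5 (0.901 to 0.928), and Heyl by Zfp11, Mfsd12 and Vmp1 (0.900 to 0.919). None of these 27 genes was another member.

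**Figure D5:**
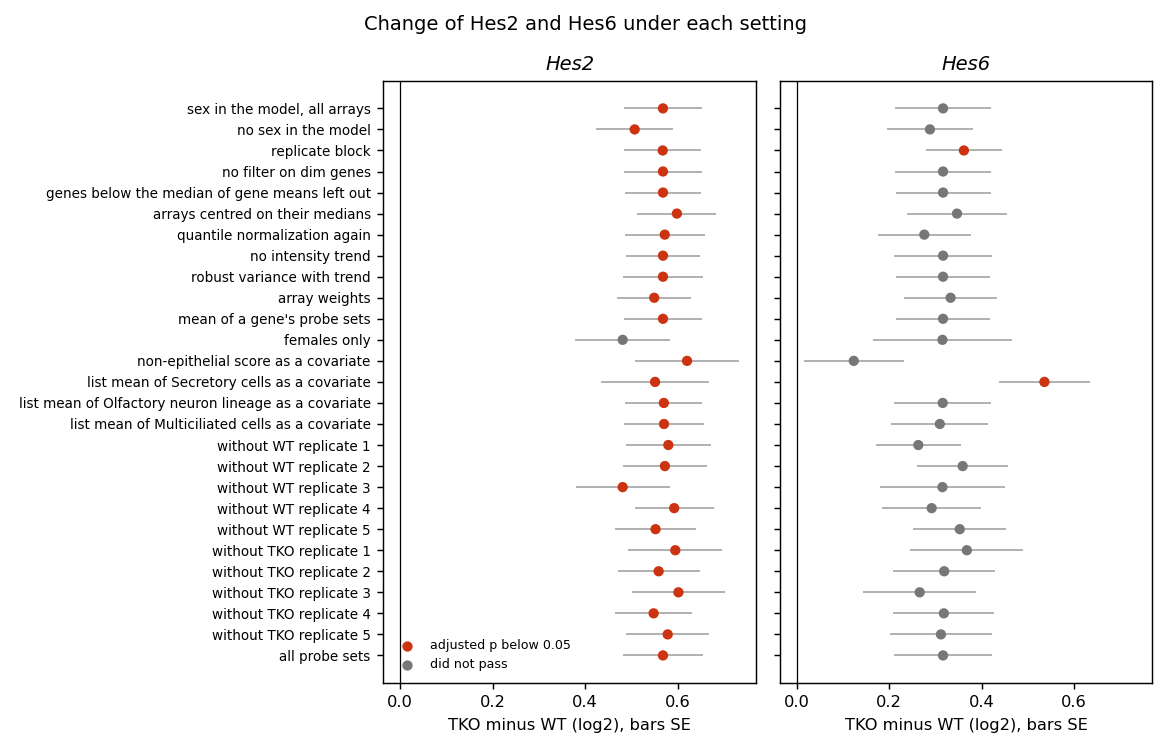
Change of Hes2 (left) and Hes6 (right), TKO minus WT on the log2 scale with the SE as bars, under each of 27 settings, red where the limma adjusted p is below 0.05. Hes2 stays between 0.48 and 0.62 and misses the threshold among females only, while Hes6 runs from 0.12 to 0.54 and passes with the replicate block and with the secretory list as a covariate.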

How the data were processed

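Expression was measured on 10 Affymetrix whole-transcript arrays, 1 per embryo. The tissue was formalin-fixed and paraffin-embedded, and kits for such tissue were used on its RNA, per the labels. The authors deposited log2 values made with RMA in the Affymetrix Expression Console, per the submitters' processing notes, and their range (1.50 to 13.7) fits that scale. Background correction and detection could not be revisited, and the number of arrays limits the precision. Of 41345 probe sets, 23521 had 1 gene symbol, 1814 several and the rest none. The brightest probe set stood for each of 22180 genes, and genes with a mean below the 25th percentile (4.58) were left out. The comparison used limma 3.58.1 under R 4.3.3 (sex and genotype, intensity trend, two-sided, Benjamini-Hochberg over 16635 genes), and single values with exact two-sided permutation tests (252 assignments). The fit was tested on simulated data. Members, Notch lists and marker lists were chosen with earlier results of these data known. Named were all members, per pathway list the genes past the threshold or else the 2 with the smallest p, 3 genes per member by Pearson r without systematic names, and 10 defining markers. Order along chromosomes came from RefSeq (GRCm38.p6, 23328 probe sets matched by Entrez ID). The labels name no genome build for the array. Figures used matplotlib 3.10.9.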

Additional observations from a re-analysis of the deposited data

Results flagged for a closer look

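In 3 of the 24 groups of 5 arrays checked, over the 11 probe sets of the Hes and Hey genes and Jag1, 1 array lay far from the rest relative to the group's range. Chance gives about 1 in 20, or 1.2 such groups. For Hes6, TKO 3 was at 7.95 and the nearest TKO array at 7.81. For the dimmer Hes7 probe set, WT 5 was at 5.29 and the nearest WT array at 5.57, away from the TKO values. For Jag1, WT 2 was at 8.03 and the nearest WT array at 7.74, towards the TKO values.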

How the results depend on the processing

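Hes2 kept its direction in all 26 other settings (0.48 to 0.62) and its call in 25, missing it among females only (0.48). Without single arrays it ran from 0.48 to 0.60. Of the other members, Hes1, Hes7, Hey1, Hey2 and Heyl kept their direction and did not pass in any setting. Their values still leaned on single arrays: leaving out 1 gave -0.20 to -0.059 for Hes1 (the latter without TKO 1), 0.072 to 0.17 for Hes7 (0.072 without WT 3 or TKO 5), 0.21 to 0.33 for Hey1, -0.24 to -0.11 for Hey2 and -0.23 to -0.047 for Heyl (both -0.11 and -0.047 without WT 3). Hes6 passed with the replicate block (0.36, limma adjusted p = 0.043) and with the secretory list as a covariate (0.54). Hes3 turned to 0.10 with the non-epithelial score. Hes5 turned to 0.011 with the secretory list, and without single arrays it ran from -0.25 to 0.032, the latter without TKO 1. Members past the threshold numbered 2 with the replicate block and with the secretory list and 0 among females only, and 1 without each array. Other Notch pathway genes past it numbered 2 with the replicate block, with array weights and with genes below the median left out (Aph1b and Jag1 each time), 0 among females only and with the non-epithelial score, 3 with the olfactory list, 5 with the multiciliated list, and 1 to 3 without single arrays (Id1, Jag1 and Mib2 without WT 5, Aph1b and Jag1 without TKO 4). Over all genes limma called 56 among females only, 113 with the non-epithelial score, 552 with the secretory list and 210 to 1284 without single arrays. The causes were not tested, but females only uses 6 arrays. Centring arrays on their medians raised the share of higher genes among the called from 79.7% to 86.8%, and leaving out WT 5 lowered it to 69.0%. Whether the replicate numbers pair the arrays is not known, and 5 pairs are too few to settle it. Deviations of same-numbered arrays correlated at -0.13 to 0.38, above 0.1 for 1 of 5 pairs. Of 5 WT arrays, 1 correlated best with its own number. With genes below the median left out, 6 members were tested. The 3 lists used singly as covariates and the fit of all probe sets were chosen after seeing the data. The fit without WT 3 takes the genotype effect from females alone, so it gives the same Hes2 change as females only.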
